A study of Mus musculus with 6 samples.

Results

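The genes described here are 10 protein-coding genes of the choroid plexus epithelium: Ttr, Enpp2, Sostdc1, F5, Folr1, Aqp1, Clic6, Kl, Prlr and Otx2. They were chosen by name in the authors' comparison table of hippocampal RNA, which lists 30821 genes, and were joined by Ensembl identifier to raw counts for 52550 genes. All 10 members were found, and all 10 passed the filter on low counts.

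The choroid plexus is a folded sheet of secretory epithelium over a vascular core that hangs into the brain ventricles and makes cerebrospinal fluid. In the lateral ventricle it is attached along the fimbria of the hippocampus. Its transcripts can therefore enter RNA prepared from dissected hippocampus, where neurons and most glia make little of them. Some members also have other sources in brain: Enpp2 is made by oligodendrocytes and Kl by some neurons.

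The study has 6 hippocampal bulk RNA libraries in 2 groups of 3, each from 1 male mouse of the strain C57BL/6J. Control mice had received a control adeno-associated virus, and TAF15 OE mice a virus carrying TAF15, an RNA-binding protein, behind the CaMKIIα promoter. That promoter is active in excitatory neurons and is not a choroid plexus promoter. Injection was stereotaxic, into CA1 on both sides, in mice aged 8 weeks. Every library is labelled with 31 days, and the promoter of the control virus is not given in the sources used here.

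Libraries held between 14965464 and 16067000 counts. The labels were checked with Taf15, which had 908, 958 and 795 counts in Control 1 to 3 and 3897, 3661 and 4477 counts in TAF15 OE 1 to 3. Its log2 fold change was 2.10 (SE 0.086, edgeR quasi-likelihood test, Benjamini-Hochberg adjusted p = 4.97e-07), so each library fitted its group label. Control 1 stood apart in the choroid plexus genes, and TAF15 OE 1 did so to a smaller degree. The members' differences between groups are therefore given with and without these libraries, and the counts called in other lists also without Control 1. In bulk RNA, fewer plexus cells in a sample and less of these transcripts per plexus cell cannot be told apart.

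The promoter windows of Aqp1 and Kl are shown because these genes lay at the opposite ends of the members' range in Control 1, Aqp1 the lowest and Kl the least lowered. Each is the 250 bases before the annotated start, plus strand, 5′ to 3′, from RefSeq on GRCm38.p6. The Aqp1 window is chr6:55336049-55336298 and the Kl window is chr5:150952357-150952606. Capitals would mark TAATCC or its reverse complement GGATTA, a motif bound by homeodomain factors of the OTX type, and neither window holds one.
Aqp1 promoter: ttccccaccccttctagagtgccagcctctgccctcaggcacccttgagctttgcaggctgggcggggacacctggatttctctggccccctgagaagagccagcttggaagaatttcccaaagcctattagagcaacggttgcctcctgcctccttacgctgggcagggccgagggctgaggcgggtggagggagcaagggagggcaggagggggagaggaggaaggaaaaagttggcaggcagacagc
Kl promoter: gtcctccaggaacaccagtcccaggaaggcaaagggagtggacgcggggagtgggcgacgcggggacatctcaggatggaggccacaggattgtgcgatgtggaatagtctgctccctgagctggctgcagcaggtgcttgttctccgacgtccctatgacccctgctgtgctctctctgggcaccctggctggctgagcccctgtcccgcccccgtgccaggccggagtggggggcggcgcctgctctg
Across the 5 members with entries (Aqp1, Kl, F5, Otx2 and Prlr), 1 of 10 promoter windows held the motif (10%), an Otx2 window with GGATTA beginning 211 bases before an internal start. The share was 6.25% over all 32851 windows and 7.14% over 42 windows of other choroid plexus genes. The motif was searched on both strands, and its 2 forms can share at most the letters TA at an overlap.

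The positions that the authors' table gives on GRCm38 are, for the secreted products, chr18:20665250-20674324 (Ttr, plus strand), chr15:54838898-54920146 (Enpp2, minus), chr12:36314139-36318452 (Sostdc1, plus) and chr1:164151838-164220277 (F5, plus). Folr1 lies at chr7:101858331-101870788 on the minus strand, Aqp1 at chr6:55336432-55348555 and Clic6 at chr16:92485736-92541243 on the plus strand. Kl lies at chr5:150952607-150993817 and Prlr at chr15:10177238-10349180, both plus, and Otx2 at chr14:48657679-48667644, minus. Of these, 5 genes overlap another annotated gene in GENCODE M21: Ttr (antisense Gm16090), Folr1 (Anapc15, opposite strand), F5 (Gm16548, opposite strand, and the pseudogene Gm16588), Clic6 (2410124H12Rik, same strand) and Prlr (protein-coding Gm21973, same strand). How the counting split reads between such pairs, and whether it used strand, is not stated in the labels, so these 5 levels are less certain than the rest.

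Choroid plexus transcripts were present in all 6 libraries and took very unequal shares of them. The 10 members together held 0.0335% of counts in Control 1 (95% exact Clopper-Pearson interval 0.0326 to 0.0345), against 0.680% in Control 2 and 0.669% in Control 3. In the TAF15 OE group they held 0.265%, 0.732% and 0.813% in libraries 1 to 3. Intervals cover counting error only. Every member was lowest of all 6 libraries in Control 1 and lowest of its group in TAF15 OE 1; among all tested genes, 22.8% and 37.6% did so. TAF15 OE 3 was the highest library for all 10 members.

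**Figure D1:**
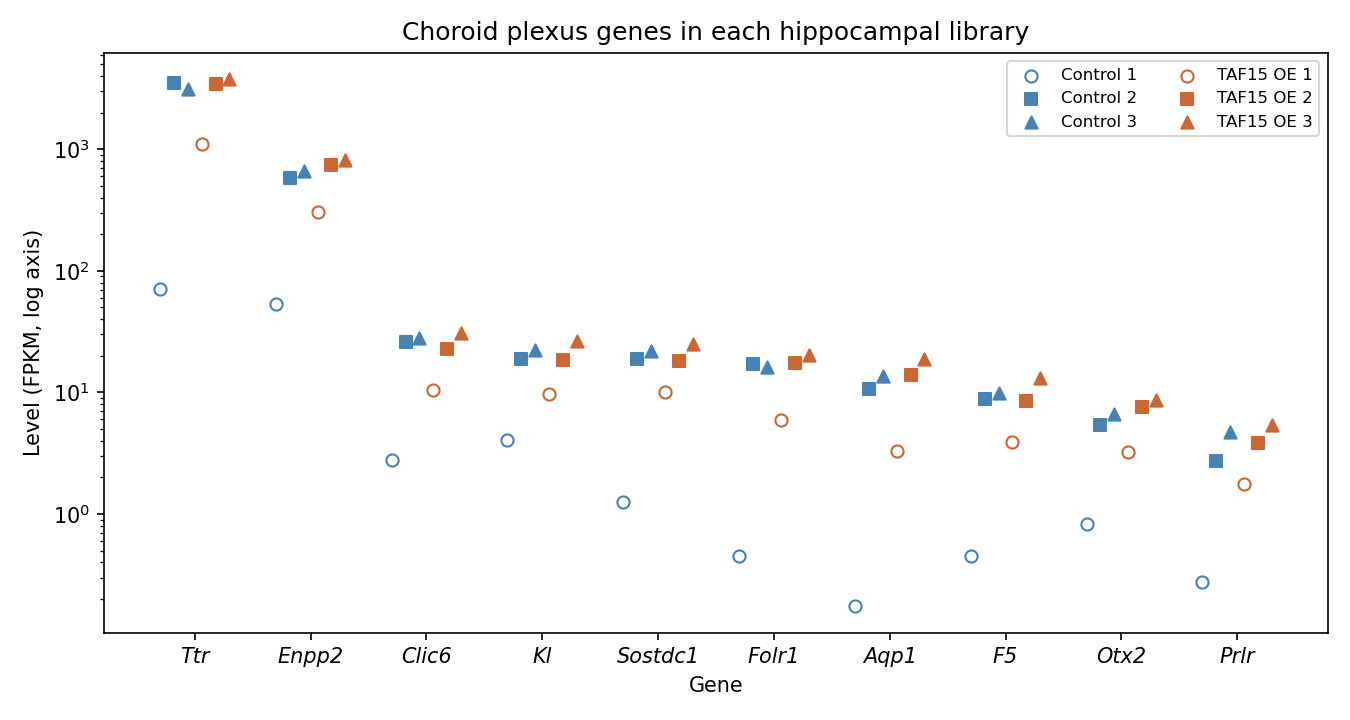
FPKM of each member (log axis) in each of the 6 libraries, 1 point per mouse, Control in blue and TAF15 OE in orange, with open circles for the first library of each group. Control 1 is the lowest point for all 10 members, and TAF15 OE 1 lies between it and the other 4 libraries.

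Levels below are CPM, counts relative to the TMM-scaled library size, in the order of libraries 1, 2 and 3 of each group. Among the secreted products, Ttr encodes transthyretin, the carrier of thyroid hormone and of retinol-binding protein in cerebrospinal fluid. Ttr measured 89.3, 4273 and 3839 CPM in Control and 1356, 4140 and 4477 CPM in TAF15 OE. Group means were 2734 ± 2300 and 3324 ± 1713 CPM (SD, n = 3 each). Control 2, Control 3, TAF15 OE 2 and TAF15 OE 3 lay close together, and the spread within each group came from its first library.

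Enpp2 encodes autotaxin, the secreted lysophospholipase D that makes lysophosphatidic acid. It measured 194, 2036 and 2339 CPM in Control and 1054, 2554 and 2755 CPM in TAF15 OE (means 1523 ± 1161 and 2121 ± 930 CPM, SD, n = 3 each). Here too Control 1 was far below the rest, and TAF15 OE 1 fell between it and Control 2. Sostdc1, a secreted antagonist of BMP and Wnt signals, measured 2.31, 33.8 and 39.6 CPM in Control and 18.0, 32.0 and 43.3 CPM in TAF15 OE. F5, which encodes coagulation factor V, measured 3.46, 65.7 and 74.2 CPM in Control and 29.1, 62.6 and 94.9 CPM in TAF15 OE. For both genes the groups overlapped, since Control 2 and 3 lay above TAF15 OE 1.

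Among membrane transporters and channels, Folr1 encodes folate receptor alpha, which carries folate across the epithelium into cerebrospinal fluid. Folr1 measured 1.09, 39.6 and 37.8 CPM in Control and 13.6, 39.4 and 45.8 CPM in TAF15 OE. Its level in Control 1 rested on 16 counts. Aqp1, the water channel of the apical membrane, measured 0.475, 28.2 and 36.5 CPM in Control and 8.69, 35.6 and 48.4 CPM in TAF15 OE. In Control 1 the Aqp1 level rested on 7 counts, with an exact 95% Poisson interval of 2.81 to 14.4 counts, against 425 and 548 counts in Control 2 and 3. Clic6, a member of the chloride intracellular channel family, measured 11.3, 102 and 111 CPM in Control and 41.1, 86.9 and 117 CPM in TAF15 OE. All 3 transport genes were lowest in Control 1, and the 2 groups overlapped for each.

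Of the receptors, Kl encodes alpha-klotho, the co-receptor of the hormone FGF23, and Prlr encodes the prolactin receptor. Kl measured 39.7, 177 and 211 CPM in Control and 90.2, 170.2 and 239 CPM in TAF15 OE. Prlr measured 4.41, 41.9 and 72.9 CPM in Control and 27.2, 58.3 and 80.1 CPM in TAF15 OE. Kl kept the highest level in Control 1 relative to its group. Prlr was the member that differed most between Control 2 and Control 3. Otx2 encodes the homeodomain transcription factor needed to form and keep the choroid plexus, and it measured 2.92, 18.4 and 22.9 CPM in Control and 11.0, 25.2 and 28.5 CPM in TAF15 OE. Its counts were low, 43 in Control 1 and 172 in TAF15 OE 1, and its groups overlapped.

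Within the Control group, each member's level in Control 1 was set against the mean of Control 2 and 3, without a test, as 1 library stands against 2. Aqp1 was at 1.47% of that mean, a 68.0-fold difference, Ttr at 2.20% (45.4-fold) and Folr1 at 2.81% (35.6-fold). F5 was at 4.95%, Sostdc1 at 6.30%, Prlr at 7.69% and Enpp2 at 8.85%. Clic6 was at 10.6%, Otx2 at 14.1% and Kl at 20.4%, a 4.90-fold difference. The median over the members was 6.99%, and over all 16758 tested genes it was 100.3%. All 10 members were more than 4-fold below the mean of the other Control libraries, against 1.10% of tested genes.

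In the TAF15 OE group the first library was again the low one, by a smaller factor. TAF15 OE 1 held 20.7% of the mean of TAF15 OE 2 and 3 for Aqp1, 31.5% for Ttr, 31.9% for Folr1 and 36.9% for F5, which were the 4 lowest members in the same order as in Control. Prlr, Enpp2, Clic6 and Otx2 followed at 39.3% to 41.0%, then Kl at 44.1% and Sostdc1 at 47.7%. The median over the members was 39.5%. Of the members, Aqp1 alone was more than 4-fold below, against 0.388% of tested genes. Scaling by library totals, scaling by DESeq2 size factors and FPKM gave Control 1 medians between 6.79% and 7.04%.

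The remaining libraries lay closer to each other. Control 3 was above Control 2 for 8 of 10 members, with ratios from 1.09 for Clic6 to 1.74 for Prlr; Ttr (0.899) and Folr1 (0.956) were lower. TAF15 OE 3 was above TAF15 OE 2 for all 10 members, from 1.08 for Enpp2 and Ttr to 1.52 for F5. The median ratios were 1.16 and 1.35. Of all tested genes, 50.7% were higher in Control 3 than in Control 2 and 51.5% were higher in TAF15 OE 3 than in TAF15 OE 2. These are single libraries, so the ratios carry no test.

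Spread within groups placed the members among the most variable genes of the table. The SD of log2 CPM over the 3 Control libraries was 3.32 for Aqp1, 3.18 for Ttr and 1.32 for Kl, which ranked 4, 7 and 126 of 16758 genes; the median gene had 0.14. Over the TAF15 OE libraries it was 1.31 for Aqp1, 0.96 for Ttr and 0.64 for Sostdc1, the lowest of the members, with a median gene at 0.14. The biological coefficient of variation estimated by edgeR was 117% for Aqp1, 107% for Ttr and 62.7% for Kl, against a median of 12.4% over the tested genes.

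Per length, on the FPKM scale, Ttr had the highest mean level over the 6 libraries (2501 FPKM) and Enpp2 the next (528 FPKM). Clic6 (20.1), Kl (16.7), Sostdc1 (15.9), Folr1 (13.0), Aqp1 (10.1), F5 (7.45), Otx2 (5.38) and Prlr (3.11 FPKM) followed. Ttr lay above Enpp2, and Enpp2 above Clic6, in every library, and the lowest library of Enpp2 exceeded the highest of Clic6. From Clic6 down to Otx2, neighbours differed by less than their SD between libraries, which for Clic6 was 14.0 FPKM in Control and 10.1 FPKM in TAF15 OE. Otx2 and Prlr differed by less than the SD of Otx2 (3.07 and 2.83 FPKM) but by more than that of Prlr (2.21 and 1.80 FPKM).

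Levels relative to Ttr in the same library show how uniformly the members were lowered. Folr1 kept nearly the same ratio, between 4.92 and 5.43 FPKM per 1000 FPKM of Ttr in 5 libraries and 6.46 in Control 1. Aqp1 had 2.47 in Control 1 and 2.97 to 5.01 in the other 5 libraries, and was the only member whose ratio was lowest in Control 1. The other 7 members had their highest ratio in Control 1. Kl rose furthest, to 58.0 FPKM per 1000 FPKM of Ttr against 5.37 to 8.69 elsewhere, which is 8.62 times the mean of the other 5 libraries. For Otx2 that factor was 5.30, for Clic6 4.85, for Enpp2 3.50, for Prlr 3.06, for Sostdc1 2.65 and for F5 2.10. TAF15 OE 1 had the highest ratio of the remaining 5 libraries for Kl, Clic6, Enpp2, Otx2, Prlr, Sostdc1 and F5, while its Folr1 ratio of 5.33 was within the range of the other libraries.

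Between the groups, none of the 10 members passed the test. The comparison addresses which transcripts differ in hippocampus that received the TAF15 virus, and edgeR's quasi-likelihood test with Benjamini-Hochberg adjustment called 15.3% of the 16758 tested genes at an adjusted p below 0.05, 1562 higher (9.32%) and 997 lower (5.95%) in TAF15 OE. Scaled on library totals alone, the split was 1838 higher and 716 lower. With edgeR, DESeq2 and limma-voom alike, 0 members were called and 0 had an unadjusted p under 0.05. The groups overlapped for each of the 10 members, whereas 34.6% of tested genes had groups without overlap.

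All 10 fitted differences were positive, with a median log2 fold change of 0.36 against 0.026 for all tested genes, but each had an interval far wider than its value. On the same 6 libraries the size depended on the method: the members' median was 1.03 with limma-voom, 0.76 with limma-trend on log2(FPKM + 1) and 0.32 with DESeq2, and Ttr had 1.37, 1.41 and 0.25. Ttr had a log2 fold change of 0.28 (SE 1.41, 95% interval -3.57 to 4.14, edgeR adjusted p = 0.926). Enpp2 had 0.48 (SE 1.03, interval -2.34 to 3.29, adjusted p = 0.817). Otx2 had the highest value, 0.54 (SE 0.83, adjusted p = 0.737), and Clic6 the lowest, 0.13 (SE 0.94, adjusted p = 0.949). The other 6 lay between 0.22 for Kl and 0.51 for Aqp1, with edgeR adjusted p from 0.819 for Prlr to 0.892 for Folr1. In the authors' deposited table the log2 fold changes of the members ran from 0.099 for Clic6 to 0.51 for Otx2, with adjusted p from 0.791 to 0.971. The members' log2 fold changes there equalled those of the DESeq2 fit, so they are not a separate result. None of the members was marked significant (1.81% of the 30803 genes with a p-value in that table were). That mark covered 558 genes and DESeq2 called 2749 at an adjusted p below 0.05, so the mark followed a stricter rule.

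The sign of these differences depended on single libraries. Without TAF15 OE 3, Ttr, Kl, Clic6, Sostdc1 and F5 turned negative, from -0.0063 for Ttr to -0.23 for Clic6. Without Control 1, 9 of 10 members turned negative, from -0.046 for Enpp2 to -0.38 for Clic6, Otx2 stayed at 0.058, and the median was -0.20; 0 were called by edgeR, against 8.01% of tested genes. Without Control 1 and TAF15 OE 1 together, 0 members were called, against 13.0% of tested genes, and 2 had an unadjusted p under 0.05. The median was then 0.13. Ttr had 0.060 (SE 0.083, 95% interval -0.12 to 0.24, edgeR adjusted p = 0.708). Enpp2 had 0.25 (SE 0.087, interval 0.067 to 0.44, edgeR adjusted p = 0.0692) and Otx2 had 0.35 (SE 0.13, interval 0.064 to 0.63, adjusted p = 0.102), the 2 members with an unadjusted p under 0.05. Clic6 had -0.086 (SE 0.12, adjusted p = 0.724). In this fit each group has 2 libraries. The libraries left out were chosen because these same members were low in them, so narrower intervals were fixed by that choice. The intervals and p-values of this fit depend on it, and no conclusion is drawn from them.

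**Figure D2:**
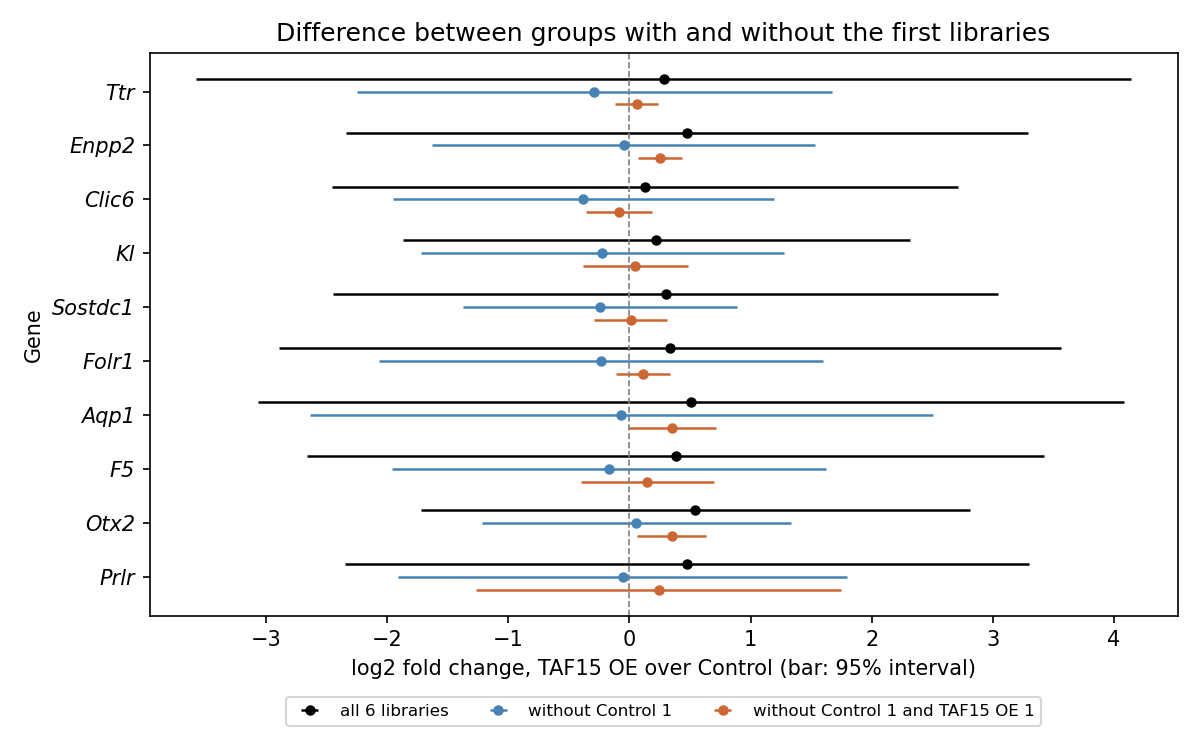
log2 fold change of each member, TAF15 OE over Control, with its 95% interval derived from the edgeR test, for all 6 libraries, without Control 1, and without Control 1 and TAF15 OE 1. With all libraries every interval spans 0, as for Ttr from -3.57 to 4.14, and without both first libraries the Ttr interval is -0.12 to 0.24.

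Other genes of the same epithelium were also low in Control 1 and in TAF15 OE 1. A second list held 33 choroid plexus genes, all tested: ion and solute transporters such as Slc4a5 and Kcnj13, tight-junction claudins, keratins, and secreted factors such as Igf2. Of these, 31 were lowest of all libraries in Control 1 and 33 lowest of their group in TAF15 OE 1. Their median level was 8.46% of the mean of Control 2 and 3 in Control 1, and 43.0% of the mean of TAF15 OE 2 and 3 in TAF15 OE 1. The ranges were wide, 3.03% to 72.3% in Control 1 and 9.83% to 78.0% in TAF15 OE 1. In Control 1, 25 of the 33 were more than 4-fold below. None was called between groups (15.3% of tested genes), and 0 had an unadjusted p under 0.05 with edgeR, DESeq2 or limma-voom; their median log2 fold change was 0.35, with 30 of 33 positive. The smallest p values belonged to the claudin Cldn3 (0.37, SE 0.40, edgeR adjusted p = 0.591), the organic anion transporter Slco1a5 (0.60, adjusted p = 0.619), the copper transporter Slc31a1 (0.45, adjusted p = 0.645) and the monoamine transporter Slc29a4 (-0.16, adjusted p = 0.659).

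Over the whole table, 184 tested genes were more than 4-fold below the mean of Control 2 and 3 in Control 1. They included the 10 members and 25 of the second list. Of the 184, 135 (73.4%) were lowest of their group in TAF15 OE 1, against 37.6% of all tested genes. With a mean of at least 2 FPKM there were 49 such genes of 11630, made up of the 10 members, 22 of the second list and 17 in neither. Of these 49, 47 were also lowest of their group in TAF15 OE 1. The members and second-list genes among them were already given above as lowest there. The lowest of the 17, named after their values were seen, were the beta-defensin Defb11 at 0 counts, the sugar transporter Slc2a12 at 9.09% and the heparan sulfate sulfatase Sulf1 at 9.84%. Of the 184 genes, 4.35% were called between the groups, against 15.3% of all tested genes. Genes chosen for a wide spread within Control are harder to call, so no conclusion is drawn from the lower share.

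The genes whose pattern over the 6 libraries was most like that of Ttr were ranked by the root mean square difference of centred log2 CPM, a description with no test. Among the members Folr1 was nearest of all tested genes (0.18), Aqp1 ranked 3 (0.29), F5 ranked 11 (0.47) and Kl was farthest at rank 82 (1.19). Of genes outside the members, the nearest were Oca2 (0.26), Slc4a5 (0.30), Tmem72 (0.32), Cldn2 (0.33), Tmprss11a (0.36), Kcnj13 (0.37), Kcne2 (0.41), 1500015O10Rik (0.45), Mfrp (0.48) and Steap1 (0.50). The median over all tested genes was 2.04, and 8 of these 10 genes belonged to the second list. Tmprss11a had 0 counts in Control 1 and Oca2 had 1, so their values there depend on the prior count.

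**Figure D3:**
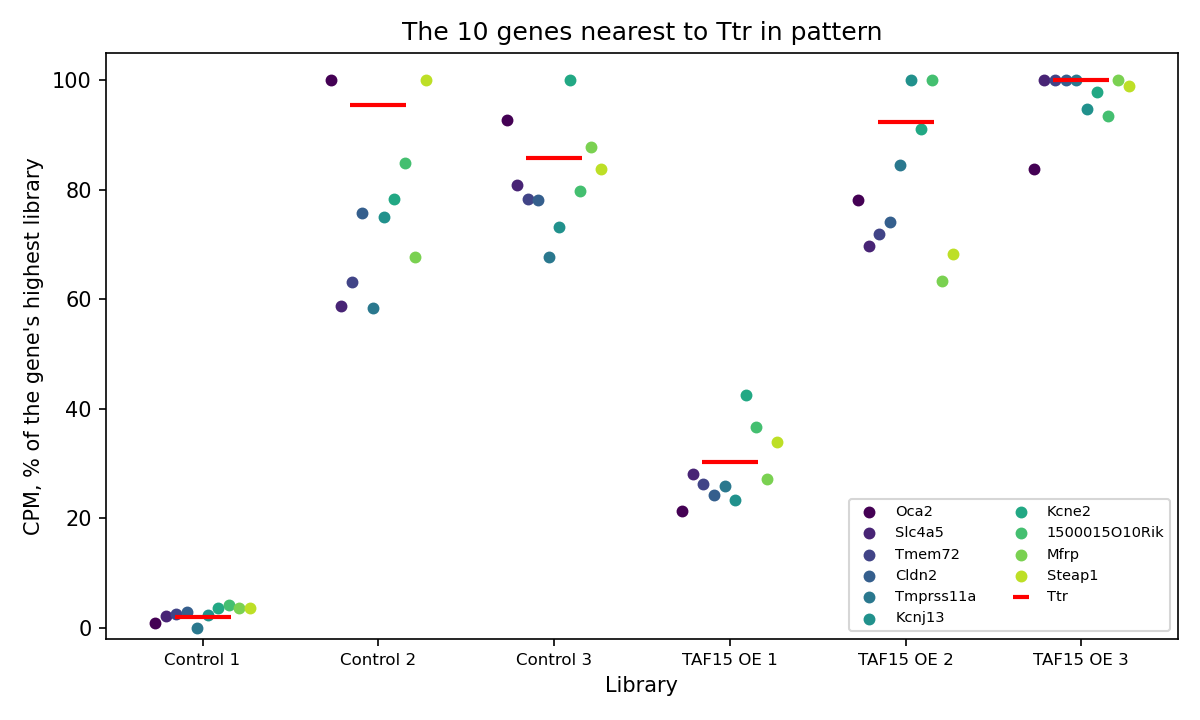
CPM of the 10 genes nearest to Ttr in pattern (points) and of Ttr (red bar) in each of the 6 libraries, as a percent of each gene's highest library. All 10 points lie near the bottom of the axis in Control 1, where Tmprss11a has 0 counts, and between those and the other libraries in TAF15 OE 1.

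Markers of tissue near the hippocampus were read beside these results, and their part in them was not tested. Tested were 16 ependymal, 12 leptomeningeal, 12 oligodendrocyte, 7 thalamic, 7 striatal, 8 hippocampal, 3 red blood cell and 8 fenestrated vessel and choroid stroma genes. None was more than 4-fold below in Control 1, against 1.10% of all tested genes. At that share, lists of this size would hold few such genes or none. The lists also do not cover every gene of these tissues. The cilia genes Drc7 (16.5%) and Cfap126 (18.0%), in none of the lists, were more than 4-fold below in Control 1. Lowest of all libraries in Control 1 were 10 ependymal, 11 oligodendrocyte, 1 thalamic and 0 hippocampal genes, against 22.8% of all tested genes. Also lowest there were 6 leptomeningeal, 4 striatal, 4 vessel and stroma and 0 red blood cell genes. Lowest of their group in TAF15 OE 1 were 13 ependymal, 1 oligodendrocyte, 3 thalamic and 3 hippocampal genes, against 37.6%. The same held for 5 leptomeningeal, 3 striatal, 0 vessel and stroma and 0 red blood cell genes. The ciliated ependymal cells that line the ventricle had a median of 66.6% in Control 1 and 74.8% in TAF15 OE 1, with summed levels of 36.6 to 53.3 FPKM in Control and 50.0 to 70.4 FPKM in TAF15 OE. Hippocampal neuron genes were at 107% and 118%, with 319 to 338 FPKM in Control and 254 to 278 FPKM in TAF15 OE. Red blood cell genes had a median of 520% in Control 1, over 3 tested genes that ran from 89.3% to 548%. Their sums were 1.76 to 15.2 FPKM in Control and 6.17 to 8.20 FPKM in TAF15 OE, and 1 of the 5 listed genes was at 0 in some libraries. Striatal genes were at 74.5% and 78.9%, and thalamic genes, of which 1 of 8 was at 0 somewhere, at 97.7% and 95.6%.

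**Figure D4:**
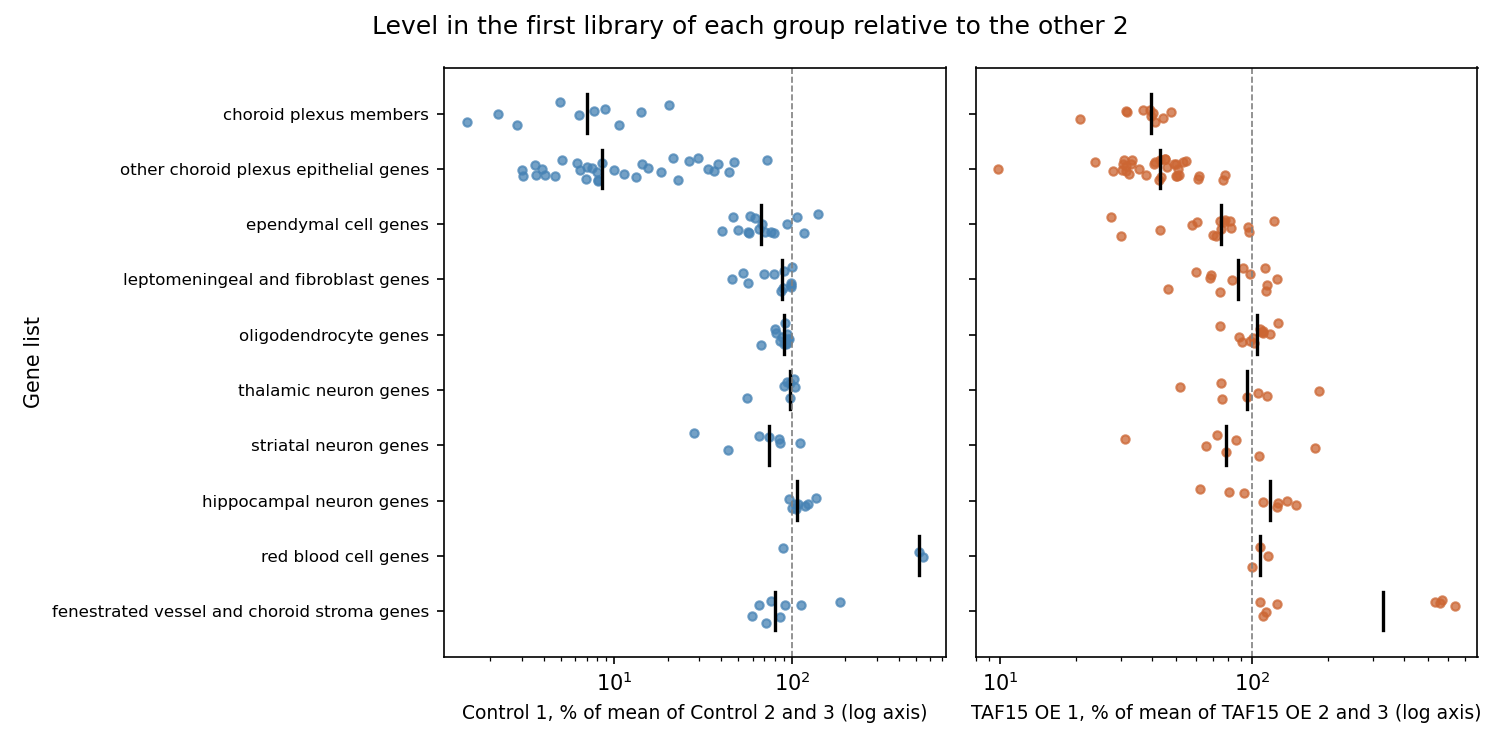
Level of each tested gene of the 10 lists (1 point per gene, black bars at the list medians, log axes) in Control 1 as a percent of the mean of Control 2 and 3, left, and in TAF15 OE 1 as a percent of the mean of TAF15 OE 2 and 3, right; the dashed line marks equal levels. The choroid plexus members lie between 1.47% and 20.4% on the left and between 20.7% and 47.7% on the right, and the hippocampal neuron genes have medians of 107% and 118%.

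The 8 genes listed for fenestrated vessels and choroid stroma, the tissue under the epithelium, were not lowered in TAF15 OE 1 as the members were. Their median there was 329% of the mean of TAF15 OE 2 and 3, and 0 of 8 were lowest of their group in TAF15 OE 1; in Control 1 the median was 80.7%. Summed levels were 33.0 to 38.9 FPKM in Control and 841, 103 and 200 FPKM in TAF15 OE 1 to 3. Cd74, the invariant chain of antigen presentation, measured 562, 59.2 and 118 CPM in TAF15 OE. Single genes of the list ranged from 108% to 635% in TAF15 OE 1. Cd74, H2-Aa, H2-Ab1 and H2-Eb1 are antigen-presentation genes that immune cells elsewhere in brain make. The list is therefore not specific to choroid stroma, and the source of its transcripts was not tested. None of the 8 was called by edgeR between the groups (15.3% of tested genes were), and 4 had an unadjusted p under 0.05. DESeq2 called 4, against 2749 of 30821 genes in all. Without TAF15 OE 1 edgeR called 3 (Cd74, H2-Aa and H2-Eb1), against 2501 of 17109 genes. Without Control 3 edgeR called 1 (Mrc1), against 1698 of 17209 genes.

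Several of these lists held genes that passed the test between the groups, where 9.32% of all tested genes were called higher and 5.95% lower. Of the 12 oligodendrocyte genes 9 rose in TAF15 OE, among them the myelin genes Mag (0.53, edgeR adjusted p = 0.00371), Cldn11 (0.49, adjusted p = 0.00481) and Cnp (0.48, adjusted p = 0.00858), with sums of 836 to 947 FPKM in Control and 1112 to 1430 FPKM in TAF15 OE. Without Control 1 the count was 5, and it was 2 without TAF15 OE 2 (Cldn11 and Mag), 9 without TAF15 OE 3 and 6 without any other single library. Of the 12 leptomeningeal and fibroblast genes 3 rose, the collagen Col1a1 (0.78, edgeR adjusted p = 0.00922), the carboxylate transporter Slc13a3 (0.76) and the proteoglycan Lum (0.75). Without Control 1, TAF15 OE 2 or TAF15 OE 3 the count was 2, with Lum lost; it was 1 without Control 2, 6 without Control 3 and 4 without TAF15 OE 1. The neuronal genes Neurod6, Fibcd1 and Spink8 fell by 0.64, 0.46 and 0.75 on the log2 scale, 3 of the 8 hippocampal genes, and these 3 were called without any single library.

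The calls in the remaining lists were lost when any of several libraries was left out. Such fits also called fewer genes in all, 1331 to 2501 against 2559 with all libraries. Of 16 ependymal genes 1 rose, the cilia regulator Foxj1 (0.72, edgeR adjusted p = 0.0230), a share below that of all tested genes; it was called without Control 1 or Control 3 but not without any other single library. Lef1 and Tcf7l2 rose among 7 thalamic genes. Neither was called without Control 1 (edgeR adjusted p = 0.0818 and 0.107), Control 2, Control 3 or TAF15 OE 2, and without TAF15 OE 3 Tcf7l2 alone was. Among 7 striatal genes Drd1 rose (1.84) and Pde10a fell by 0.41. Drd1 was not called without Control 1 (edgeR adjusted p = 0.0627), Control 2, Control 3 or TAF15 OE 2, and Pde10a was not called without Control 3 or TAF15 OE 2. Without Control 1 and TAF15 OE 1 together, edgeR called Foxj1, Tcf7l2, Drd1 and Pde10a but not Lef1.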

How the data were processed

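RNA of 6 hippocampal libraries, 3 Control and 3 TAF15 OE, was sequenced on an Illumina instrument after TruSeq preparation, per the labels. The submitters' processing notes name CASAVA, Bowtie2 2.2.3, HISAT2 2.1.0, TopHat2 and build GRCm38; the sources used here give no read counter, annotation or strandedness. Values of the first deposited table are whole, unscaled read counts for Ensembl genes. Deposited FPKM values divide these by gene length and library total, checked in 8926 genes with over 200 counts (largest relative deviation 2.57e-09). A further deposited table compares the groups: beside the same counts it gives a normalised signal, a fold ratio, its log2 value and a p-value, all made by the authors with a test it does not name, and 13762 genes have NA as adjusted p.

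Counts were fitted in R 4.3.3 with edgeR 4.0.16: filterByExpr (minimum count 10, total 15), TMM (factors 0.964 to 1.03), a robust quasi-likelihood F-test with group as the only term, and Benjamini-Hochberg adjustment over 16758 genes, called below 0.05. The fit was tested on simulated data. CPM in the text is scaled by TMM, and log2 CPM used a prior count of 2. Alternatives used DESeq2 1.42.0, limma 3.58.1 on counts (voom) or log2 FPKM (pseudocounts 1 and 0.1), other filters and scalings, a replicate block and left-out libraries. Symbols and positions came from the authors' table, overlapping genes from GENCODE M21 and promoters from RefSeq. Figures were drawn with matplotlib 3.10.9.

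The members, gene lists and tests were chosen with earlier results of these data known. The text names all members, the 4 genes with the smallest p of the second choroid plexus list and up to 3 of each other list, the 10 genes nearest to Ttr in pattern, and Taf15; other genes are examples.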

Additional observations from a re-analysis of the deposited data

How the results depend on the processing

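Under 11 alternatives and 6 left-out libraries 0 members were called, and the lowest adjusted p of a member was 0.0692, for Enpp2 without Control 1 and TAF15 OE 1. Signs were less stable. Leaving out each library in turn gave log2 fold changes from -0.29 to 0.76 for Ttr, -0.23 to 0.76 for Folr1, -0.22 to 0.62 for Kl, -0.38 to 0.53 for Clic6, -0.046 to 0.93 for Enpp2, -0.066 to 1.10 for Aqp1, -0.057 to 1.25 for Prlr, -0.24 to 0.78 for Sostdc1, -0.17 to 0.84 for F5 and 0.058 to 1.01 for Otx2. The lowest value of each came without Control 1; without TAF15 OE 3, Ttr (-0.0063), Kl (-0.14), Clic6 (-0.23), Sostdc1 (-0.028) and F5 (-0.073) were also negative. Clic6 was -0.086 without Control 1 and TAF15 OE 1 together; no scaling, filter or test on all 6 libraries turned a sign, but their sizes differed, with a members' median of 0.36 by edgeR, 0.77 with the replicate block and 1.03 by limma-voom. The labels give no pairing of mice beyond a replicate number. Across genes, deviations of same-numbered libraries correlated at 0.13, 0.078 and 0.087. Such values cannot show whether mice with the same number were handled together. With that number as a replicate block, 0 members and 2 of the second choroid plexus list were called, Slc31a1 (edgeR adjusted p = 0.0102) and Car12 (adjusted p = 0.0361), and 3291 genes in all. The number of called genes, 2559 with all libraries and edgeR, was 1551 and 1630 with limma-trend on log2 FPKM at pseudocounts 1 and 0.1, 669 at pseudocount 1 without a filter, and 1331 to 2501 without single libraries (1381 without Control 1, 1519 without Control 2, 1698 without Control 3 and 1331 without TAF15 OE 2); the cause was not tested. With 3 mice a group and all 6 libraries, the interval of Ttr ran from -3.57 to 4.14, and differences within it were not detectable. Low counts in Control 1, 7 for Aqp1 and 16 for Folr1, limit the precision of their ratios.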
